A study of Rattus norvegicus with 8 samples.

Results

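The nitric oxide synthase genes Nos1, Nos2 and Nos3 and the tetrahydrobiopterin (BH4) genes Gch1, Gchfr, Pts, Spr and Qdpr were followed in cultured smooth muscle cells of the rat pulmonary artery during exposure to a nitric oxide donor. Members were all probe sets that the platform annotation assigns to 1 of these symbols alone, which gave 22 probe sets of 8 genes among 8740 probe sets and 4736 singly annotated genes. Another 4 probe sets that also carry a second symbol were left out. The cells were primary cultures from explants of adult Sprague-Dawley rat pulmonary arteries from which endothelium and adventitia had been stripped. The 4 groups were untreated cells and cells given S-nitrosoglutathione (GSNO), an S-nitrosothiol that releases nitric oxide, for 1, 2 or 4 h. Each group has 2 arrays, numbered 1 and 2. The GSNO concentration is 100 μmol/L in the series design and 100 mmol/L in the treatment protocol, and neither was taken as fact. The untreated cells have no stated time in culture, so time and GSNO cannot be told apart.

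Nitric oxide synthases make nitric oxide from arginine, and each needs BH4 as a cofactor; without it the enzyme passes electrons to oxygen and releases superoxide. Gch1 encodes GTP cyclohydrolase 1, the rate-limiting first enzyme of BH4 synthesis. Pts (6-pyruvoyltetrahydropterin synthase) and Spr (sepiapterin reductase) carry out the following steps, and Qdpr (quinoid dihydropteridine reductase) returns oxidised BH4 to its active form after it has served the aromatic amino acid hydroxylases. Gchfr encodes the GTP cyclohydrolase 1 feedback regulatory protein (GFRP), which binds the cyclohydrolase and carries inhibition by BH4 and stimulation by phenylalanine. In vascular smooth muscle, Nos2 and Gch1 are known as genes induced together by inflammatory cytokines, while Nos3 is the endothelial and Nos1 the neuronal form.

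The arrays numbered 1 and 2 were scanned on different days with different fluidics settings, and weak signals stood highest on array 1 of the 2 h group (20th percentile 38.1, with 16.4 to 28.5 elsewhere). Smooth muscle markers were present: 7 of the 8 on the array passed the filter on low signal, Des being the exception, and their summed signal was 46566 to 71755 after GSNO and 74740 and 53253 in untreated cells. The 7 fibroblast and adventitia markers all passed it, with sums of 24591 to 38778 after GSNO and 35844 and 36312 in untreated cells, and their part in the results was not tested. One of these, Dcn (decorin), was called lower at 4 h in X59859_i_at, with 16.0 and 18.5, against 170 and 200 in untreated cells (limma adjusted p = 0.0452; 0.0732 to 0.245 without either 1 h, 4 h or untreated array), and read 16.1 and 25.9 at 1 h (adjusted p = 0.13; 0.0172 with the array number as a block) and 158 and 372 at 2 h. The other Dcn probe set that passed, Z12298cds_s_at, read 15.6 and 50.6 at 4 h, against 80.4 and 20.7 in untreated cells. It was not called, with a log2 fold change of -0.35 (limma adjusted p = 0.785 with the array number as a block). The Dcn probe sets rc_AI639233_s_at and X59859_r_at did not pass and read at most 27.2 and 25.7. X59859_i_at reached the filter level on the 2 h and untreated arrays alone, so it entered the test through the groups in which it is high. Of 8 endothelial markers on the array, Edn1, Pecam1, Flt1 and Selp passed the filter, while Kdr, Vwf, Sele and Icam2 did not. To pass, a probe set had to be at or above the 40th percentile of an array (57.2 to 91.0 signal units) on at least 2 of the 8 arrays, as 67.2% of all probe sets were. Tests were made with limma on log2(signal + 21.1), in 1 fit over all groups, with Benjamini-Hochberg adjustment over the 5877 probe sets that passed and a threshold of 0.05. The series design speaks of 2 independent cell preparations without saying which array holds which, so it is not shown that the array number marks the preparation. In RNA from whole cultures, fewer cells with a transcript and less of it per cell cannot be told apart.

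Gchfr was the 1 member gene called by the test. With 2 arrays a group, a probe set that did not pass is not shown to be unchanged. Its signal rose at 2 h and at 4 h, by 2.45 and 2.26 on the log2 scale with the offset added, while no probe set of a synthase or of a BH4 enzyme passed the test at any time. At 2 h, 1 of 12 tested member probe sets was called, where 0.97% of all tested probe sets were called in either direction, and at 4 h 1 of 12, where 1.53% were. That member, Gchfr, reached the filter level on the 6 GSNO arrays and on neither untreated array, so it entered the test through the groups in which it is high. With no filter, over all 8740 probe sets, its adjusted p was 0.012 at 2 h and 0.0152 at 4 h. At 1 h, 0 of 12 were called by limma, where 0.527% of all tested were, and 1 of the 12, Gchfr, had an unadjusted p under 0.05. Of all 5877 tested probe sets, 177 had an unadjusted p under 0.05 at 1 h. With the replicate block the members' calls were the same, Gchfr at 2 h and 4 h, where 3.16% and 7.93% of all tested probe sets were called, and 0 of 12 at 1 h, where 1.34% were. The 12 tested probe sets covered 7 genes, and the 10 that did not pass the filter included all 3 of Nos1.

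The Gchfr probe set, U85512_s_at, read 53.5 and 62.4 in untreated cells, 214 and 143 at 1 h, 426 and 395 at 2 h, and 318 and 402 at 4 h (arrays numbered 1 and 2). All 6 arrays of GSNO-exposed cells lay above both untreated arrays, and the untreated signals lay below the 40th percentile of their arrays, 82.3 and 71.9. Since the files hold no detection calls, the untreated level is uncertain, and so is the size of any ratio over it. The suffix of this probe set marks probes that can match more than 1 transcript of a gene or family. Among the groups, the order of the means was untreated (58.0 ± 6.24, SD, n = 2), 1 h (179 ± 50.3), 4 h (360 ± 59.9) and 2 h (411 ± 21.9), and the 4 h signals, 318 and 402, overlapped the 2 h range of 395 to 426.

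At 2 h the mean Gchfr signal was 7.09 times that of untreated cells, and the log2 fold change after the added offset was 2.45 ± 0.30 (SE; limma adjusted p = 0.00954). Taken within array numbers, the change was 2.58 for number 1 and 2.32 for number 2, a rise of like size in both. Offsets of 10.6 and 42.2 signal units in place of 21.1 gave 2.62 and 2.18. At 4 h the ratio of means was 6.21 and the log2 fold change 2.26 ± 0.30 (limma adjusted p = 0.0102), with 2.18 and 2.34 within array numbers 1 and 2, and 2.43 and 2.00 with those other offsets. At 1 h the ratio was 3.08 and the log2 fold change 1.32 ± 0.30, which did not pass (limma adjusted p = 0.235; 0.0665 in a fit that adds array number as a replicate block). The arrays numbered 1 at 1 h and 4 h come from another recorded experiment than those numbered 1 at 2 h and in untreated cells. With the recorded experiment as a block, the change of Gchfr was 1.25 at 1 h, 2.45 at 2 h and 2.20 at 4 h (limma adjusted p = 0.444, 0.00533 and 0.0208). The limma F test of the 3 times jointly had an adjusted p of 0.0196 for Gchfr. The call at 2 h was lost when 1 of the 2 h arrays or 1 of the untreated arrays was left out (adjusted p = 0.0539 to 0.0847, log2 fold change 2.37 to 2.53). The call at 4 h was lost without the 4 h array numbered 2 (adjusted p = 0.0658) and without either untreated array (adjusted p = 0.102 and 0.0599, for arrays numbered 1 and 2), with log2 fold changes of 2.10 to 2.34.

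Between exposure times, Gchfr was higher at 4 h than at 1 h on both array numbers (318 against 214 and 402 against 143), but the difference of 0.95 ± 0.30 on the log2 scale did not pass (limma adjusted p = 0.32; 0.105 with the replicate block). In that comparison 0 of 12 member probe sets were called, where 0.476% of all tested were, and 1, Gchfr, had an unadjusted p under 0.05. Of all 5877 tested probe sets, 531 had an unadjusted p under 0.05 there. With the block 0 of 12 were called too, where 5.1% of all tested were. The 4 h and 1 h signals did not overlap for 4 of the 12 members, as for 38.3% of all tested probe sets.

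**Figure D1:**
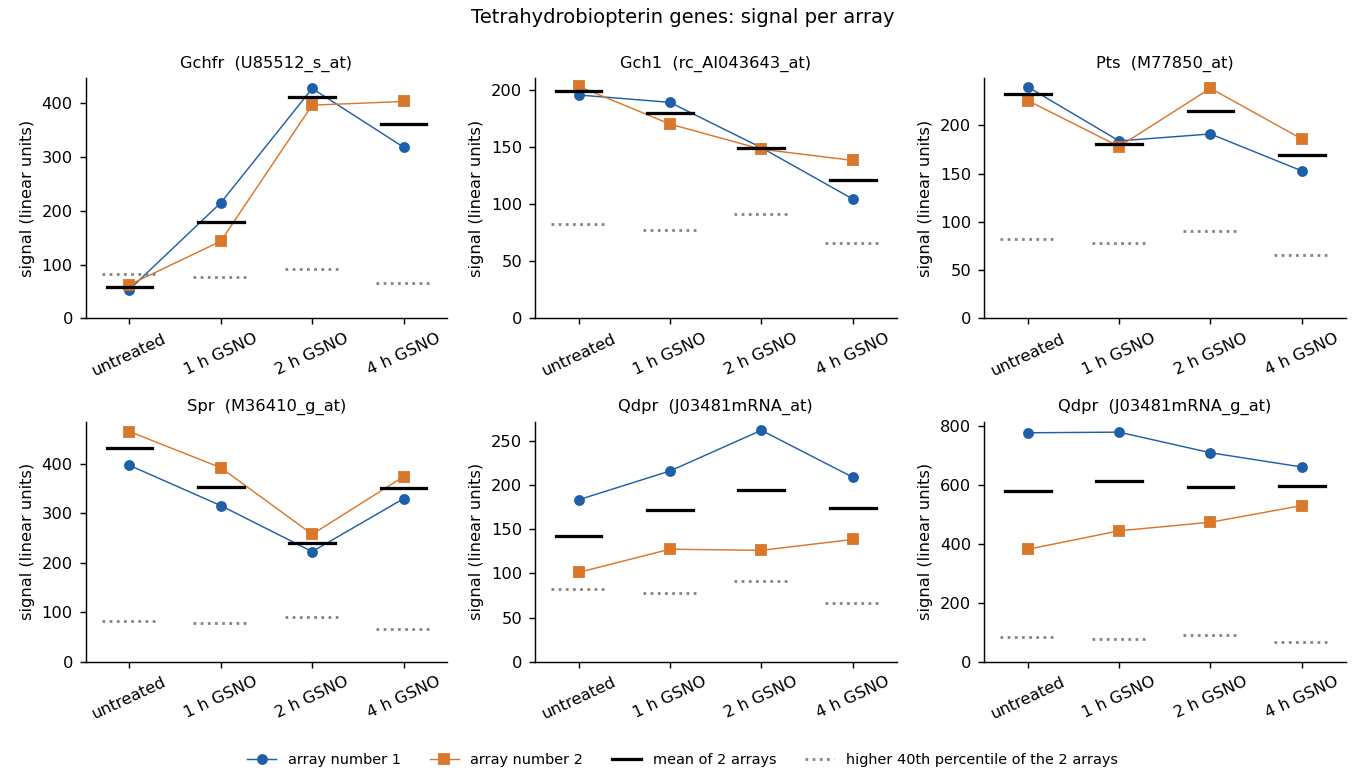
Signal in linear units (vertical axis) of the 6 BH4 probe sets that passed the filter, in untreated cells and after 1, 2 and 4 h of GSNO. Circles and squares are the arrays numbered 1 and 2, thick bars their mean and dotted lines the higher 40th percentile of the 2 arrays; Gchfr stands below that line in untreated cells and at 318 to 426 at 2 h and 4 h, and the Qdpr lines run apart by array number.

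The 250 bases before the RefSeq starts of Gchfr and of Gch1, the enzyme its protein binds, are shown because Gchfr rose in these cells and Gch1 did not pass the test. The Gchfr window lies at chr3:126611642-126611891 on the plus strand and the Gch1 window at chr15:22917413-22917662 on the minus strand of GRCr8. Sequences run 5′ to 3′, and capitals mark CCAAT boxes (CCAAT), GC boxes (GGGCGG) and the half-site of the cAMP response element (TGACG), each searched on both strands.
Gchfr: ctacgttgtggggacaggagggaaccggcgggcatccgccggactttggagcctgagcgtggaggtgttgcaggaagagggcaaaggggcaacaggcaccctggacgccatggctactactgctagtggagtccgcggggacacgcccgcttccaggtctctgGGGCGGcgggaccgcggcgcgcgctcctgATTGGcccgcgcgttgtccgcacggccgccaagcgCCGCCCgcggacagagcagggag
Gch1: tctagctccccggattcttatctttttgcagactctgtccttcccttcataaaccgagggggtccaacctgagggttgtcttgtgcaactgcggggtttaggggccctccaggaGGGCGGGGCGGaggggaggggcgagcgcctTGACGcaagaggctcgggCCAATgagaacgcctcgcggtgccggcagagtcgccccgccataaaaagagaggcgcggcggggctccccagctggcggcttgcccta
Both windows hold a CCAAT box, at 58 to 54 bases before the start on the minus strand in Gchfr and at 88 to 84 bases on the plus strand in Gch1; 34% of the 33469 RefSeq windows of this length hold one. Both also hold GC boxes, as do 30.5% of all windows, and the pair in Gch1 overlaps by a base. The Gch1 window holds TGACG at 106 to 102 bases before the start, a motif found in 18.2% of windows, and the Gchfr window does not. A RefSeq window was at hand for 7 of the 8 genes. The whole cAMP response element (TGACGTCA, in 1.59% of windows) and the antioxidant response element core (TGACNNNGC, 10.1%) matched the Nos1 window alone among the 7, and the E-box (CACGTG, 5.59%) matched none of them.

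The probe sets of the BH4 enzymes had lower mean signals than untreated cells for Gch1, Pts and Spr at each time, but 0 of these 3 probe sets were called by limma at any time, and 1 of them, Spr at 2 h, had an unadjusted p under 0.05. Of all tested probe sets 0.527%, 0.97% and 1.53% were called at 1, 2 and 4 h. At 2 h, 360 of the 5877 had an unadjusted p under 0.05. The median log2 fold change of all tested probe sets at 4 h was itself -0.16, and it was 0.04 when arrays were scaled to a common median.

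Gch1 is represented by 4 probe sets, of which rc_AI043643_at passed the filter. It read 195 and 203 in untreated cells, 189 and 170 at 1 h, 149 and 148 at 2 h, and 104 and 138 at 4 h. The groups did not overlap at any time, and every array of exposed cells lay below both untreated arrays. The log2 fold change was -0.14 at 1 h, -0.38 at 2 h and -0.64 ± 0.29 (SE) at 4 h, which did not pass (limma adjusted p = 0.472 at 4 h; 0.229 with the replicate block), and it was -0.45 at 4 h with arrays scaled to a common median. The other Gch1 probe sets (E03424cds_s_at, M58364_at and rc_AA943102_s_at) read 4.30 to 75.8 over all arrays and never reached the filter level, so they add no measurement of direction.

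Pts, M77850_at, read 240 and 226 in untreated cells, 184 and 178 at 1 h, 191 and 238 at 2 h, and 153 and 186 at 4 h. The 1 h and 4 h signals lay below both untreated signals and the 2 h signals overlapped them. Its log2 fold changes were -0.33 ± 0.28, -0.11 ± 0.28 and -0.42 ± 0.28 (SE) at 1, 2 and 4 h, none of which passed (limma adjusted p = 1.00, 1.00 and 0.638).

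Spr, M36410_g_at, read 397 and 465 in untreated cells, 315 and 392 at 1 h, 222 and 257 at 2 h, and 329 and 374 at 4 h. It stood lowest at 2 h, where the mean was 240 ± 24.8, against 431 ± 48.3 in untreated cells (SD, n = 2 each). The log2 fold change at 2 h was -0.79 ± 0.26 (SE), and it was -0.78 and -0.80 between the arrays numbered 1 and 2. It did not pass (limma adjusted p = 0.469; 0.102 with the replicate block). At 4 h the change was -0.28 (limma adjusted p = 0.755), and -0.07 with arrays scaled to a common median.

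For Qdpr, the recycling enzyme, the array number parted the signals more than exposure did. J03481mRNA_at read 183 and 101 in untreated cells, 216 and 127 at 1 h, 262 and 126 at 2 h, and 209 and 138 at 4 h. The other probe set of the same sequence, J03481mRNA_g_at, read 776 and 381 in untreated cells, 778 and 444 at 1 h, 708 and 473 at 2 h, and 660 and 529 at 4 h. In both probe sets the array numbered 1 was the higher in 4 of 4 groups, by 1.51 to 2.08 times in J03481mRNA_at and by 1.25 to 2.04 times in J03481mRNA_g_at. The log2 fold changes against untreated cells ranged from 0.08 to 0.37 over the 3 times, with SE of 0.41 to 0.46 without the replicate block and 0.22 to 0.27 with it, and none passed in either fit. Within array numbers, the 6 differences of J03481mRNA_at lay between 0.17 and 0.47, all above 0, and those of J03481mRNA_g_at between -0.23 and 0.45.

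**Figure D2:**
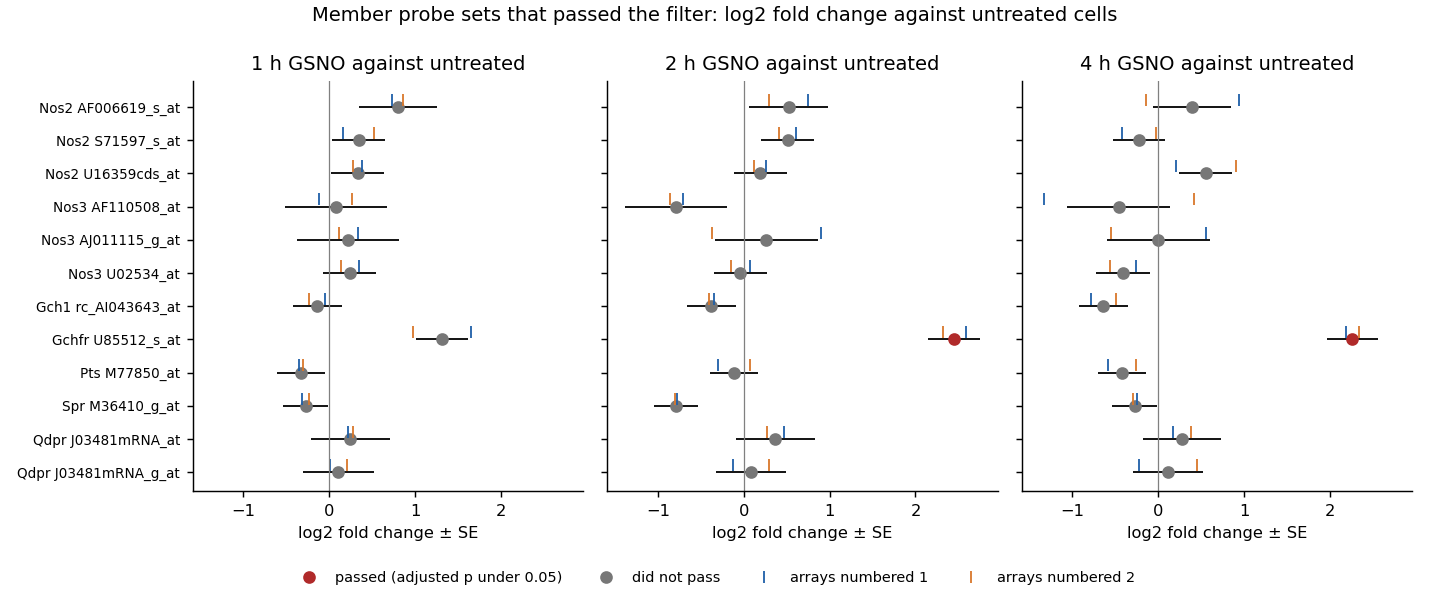
Log2 fold change ± SE against untreated cells (horizontal axis) of the 12 member probe sets that passed the filter, at 1, 2 and 4 h of GSNO. Red marks adjusted p under 0.05, grey the rest, and ticks the change within the arrays numbered 1 and 2; Gchfr stands apart at 2.45 and 2.26 at 2 h and 4 h, while the others lie between -0.79 and 0.80.

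Of the 13 synthase probe sets, 6 passed the filter, 3 of Nos2 and 3 of Nos3, and 0 of these were called at any time by limma or with the replicate block, with 0 at an unadjusted p under 0.05. Of all tested probe sets 0.527%, 0.97% and 1.53% were called at 1, 2 and 4 h, and 1.34%, 3.16% and 7.93% with the block. An unadjusted p under 0.05 was reached by 177, 360 and 654 of the 5877 at these times. A count of 0 among 6 is near that background. The 3 Nos1 probe sets read 8.05 to 78.5, and 1 of them, AF008912_at, reached the filter level on 1 array. AF006619_s_at of Nos2, which reached it on 3 arrays, was the tested member nearest to that limit. Of 6 neuron markers on the array 5 passed the filter, Nefm being the exception, with sums of 369 to 1021 after GSNO and 910 and 494 in untreated cells. Each marker was read in its probe set with the highest mean, and 67.2% of all probe sets passed. Map2 passed in U30938_at alone, and its other probe sets read at most 89.6. M25638_s_at of Nefl (at most 41.3) and AB003992_s_at and U56261_s_at of Snap25 (at most 20.9 and 31.0) did not pass.

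Of the Nos2 probe sets, U16359cds_at read 225 and 239 in untreated cells, 299 and 295 at 1 h, 274 and 262 at 2 h, and 262 and 466 at 4 h. Every exposed array lay above both untreated arrays, with log2 fold changes of 0.33, 0.19 and 0.55 ± 0.31 (SE) at 1, 2 and 4 h (limma adjusted p = 0.582 at 4 h). Within array numbers, the change at 4 h was 0.20 for number 1 and 0.90 for number 2. S71597_s_at read 137 and 116 in untreated cells, 155 and 176 at 1 h, 220 and 162 at 2 h, and 96.9 and 114 at 4 h. It stood above untreated cells at 1 h and 2 h and below them at 4 h, and its changes of 0.34, 0.51 and -0.22 did not pass. AF006619_s_at read 29.7 and 59.7 in untreated cells, 63.4 and 126 at 1 h, 64.2 and 78.2 at 2 h, and 76.1 and 51.8 at 4 h. It reached the filter level on 3 arrays, all of exposed cells, so it entered the test through arrays on which it is high. Its change at 1 h was 0.80 ± 0.46 (SE; limma adjusted p = 1.00), and U03699complete_seq_at, the remaining Nos2 probe set, read 13.5 to 70.4 and did not pass the filter. Nos2 is made by macrophages too: of 6 macrophage and leukocyte markers on the array, Cd14, Cd74 and Ptprc passed the filter, and Lyz2, Csf1r and Itgam did not. Ptprc passed in M25823_s_at alone, and its other probe sets read 0.21 to 4.23 and 3.01 to 29.2. Cd74 passed in X13044_at and X13044_g_at, while X14254cds_at and X14254cds_g_at did not pass and read at most 38.0 and 48.0. Cd14 reached the filter level on all 8 arrays in both of its probe sets, at 145 to 450 after GSNO and 241 to 422 in untreated cells. The summed signal of the 6 was 573 and 789 in untreated cells, 569 and 764 at 1 h, 706 and 737 at 2 h, and 455 and 719 at 4 h, and its part in the Nos2 values was not tested.

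Of the Nos3 probe sets, U02534_at read 102 and 124 in untreated cells, 136 and 138 at 1 h, 109 and 110 at 2 h, and 82.0 and 76.8 at 4 h. Its 4 h signals lay below those of every other group, with a log2 fold change of -0.41 ± 0.31 (SE) against untreated cells, and -0.65 ± 0.31 against 1 h (limma adjusted p = 0.683 and 0.596). AF110508_at read 133 and 159 in untreated cells, 121 and 196 at 1 h, 73.0 and 77.9 at 2 h, and 39.8 and 219 at 4 h. Its 4 h arrays held both its lowest and its highest signal, and the change at 4 h was -1.34 for array number 1 and 0.41 for array number 2. AJ011115_g_at read 42.4 and 160 in untreated cells, 58.8 and 175 at 1 h, 97.0 and 119 at 2 h, and 72.1 and 102 at 4 h, with the array numbered 2 the higher in each group and the exposed and untreated ranges overlapping. The other Nos3 probe sets, AF085195_at, AJ011115_at and AJ011116_at, read 4.00 to 73.8. Edn1, endothelin 1, read 1866 and 1056 in untreated cells, 168 and 162 at 1 h, 74.9 and 86.3 at 2 h, and 243 and 67.7 at 4 h, so every exposed array lay below both untreated arrays. Its log2 fold change was -2.94 at 1 h, which did not pass (limma adjusted p = 0.0665; 0.00296 with the replicate block), and it fell at 2 h (-3.81, limma adjusted p = 0.0132) and 4 h (-3.22, limma adjusted p = 0.0218). The call at 2 h was lost without either 2 h array or the untreated array numbered 1 (adjusted p = 0.0638 to 0.122), and the call at 4 h without the 4 h array numbered 2 or either untreated array (0.0596 to 0.188). The sum of all 8 endothelial markers was 475 to 775 after GSNO, against 2586 and 1470 in untreated cells. The summed signal of the other 7 was 720 and 414 in untreated cells, 607 and 570 at 1 h, 611 and 389 at 2 h, and 343 and 418 at 4 h. The part of these markers in the Nos3 values was not tested.

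**Figure D3:**
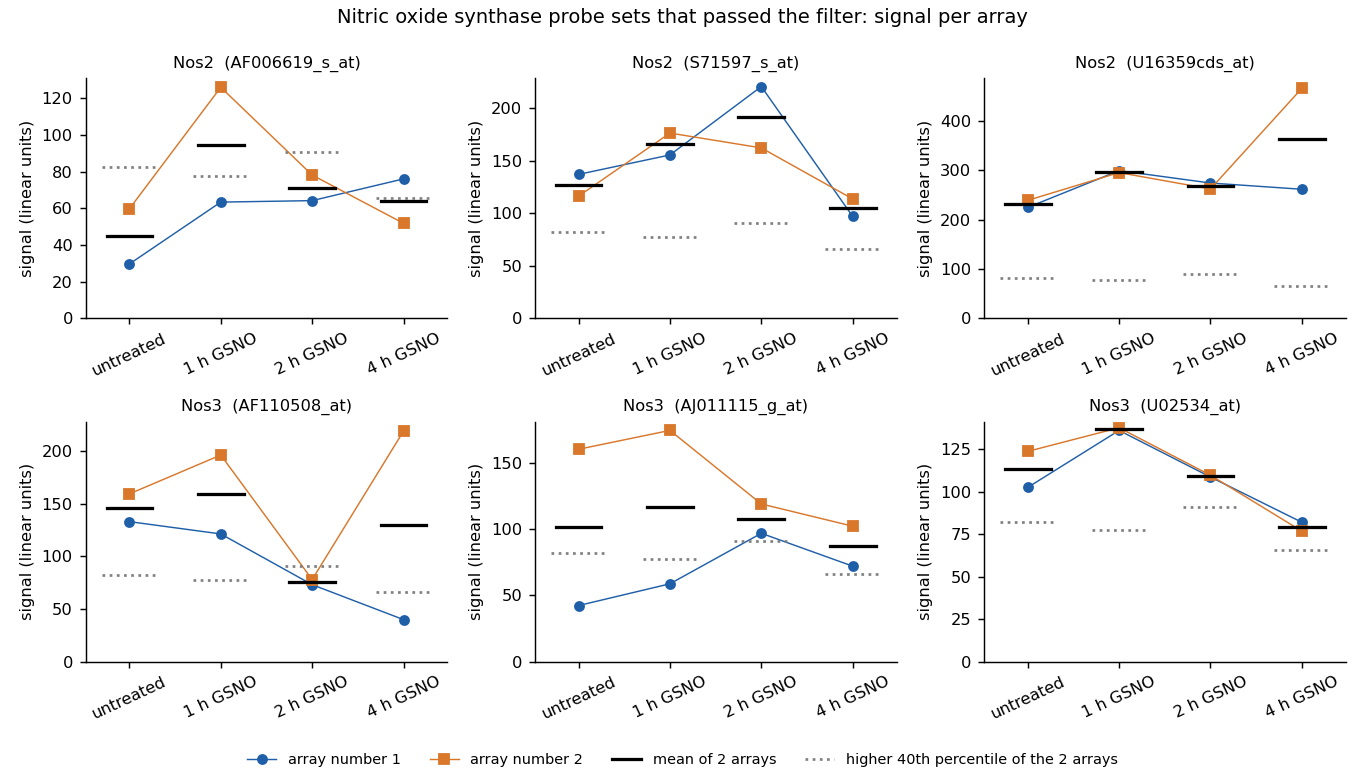
Signal in linear units (vertical axis) of the 6 nitric oxide synthase probe sets that passed the filter, in untreated cells and after 1, 2 and 4 h of GSNO. Symbols are the arrays numbered 1 and 2, thick bars their mean and dotted lines the higher 40th percentile of the 2 arrays; probe sets of the same gene take different courses, and AF110508_at spans 39.8 to 219 at 4 h.

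Among the 10 member probe sets that did not pass the filter, the highest signal fell on the 2 h array numbered 1 in 7. That is also the array with the highest 20th percentile. Taking all 12 tested member probe sets, the median log2 fold change was 0.23 at 1 h, 0.14 at 2 h and -0.11 at 4 h, against -0.05, -0.06 and -0.16 over all tested probe sets. The exposed and untreated signals did not overlap for 8 of the 12 at 1 h, where 23.1% of all tested probe sets did not, for 7 at 2 h (29.9% of all) and for 7 at 4 h (40.9% of all). Probe sets of 1 gene and the shared untreated arrays make these counts dependent on each other. Gchfr and AF006619_s_at of Nos2 reached the filter level on arrays of exposed cells alone. The filter thus selected them for high exposed signals, and the counts and medians that include them are a description only.

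**Figure D4:**
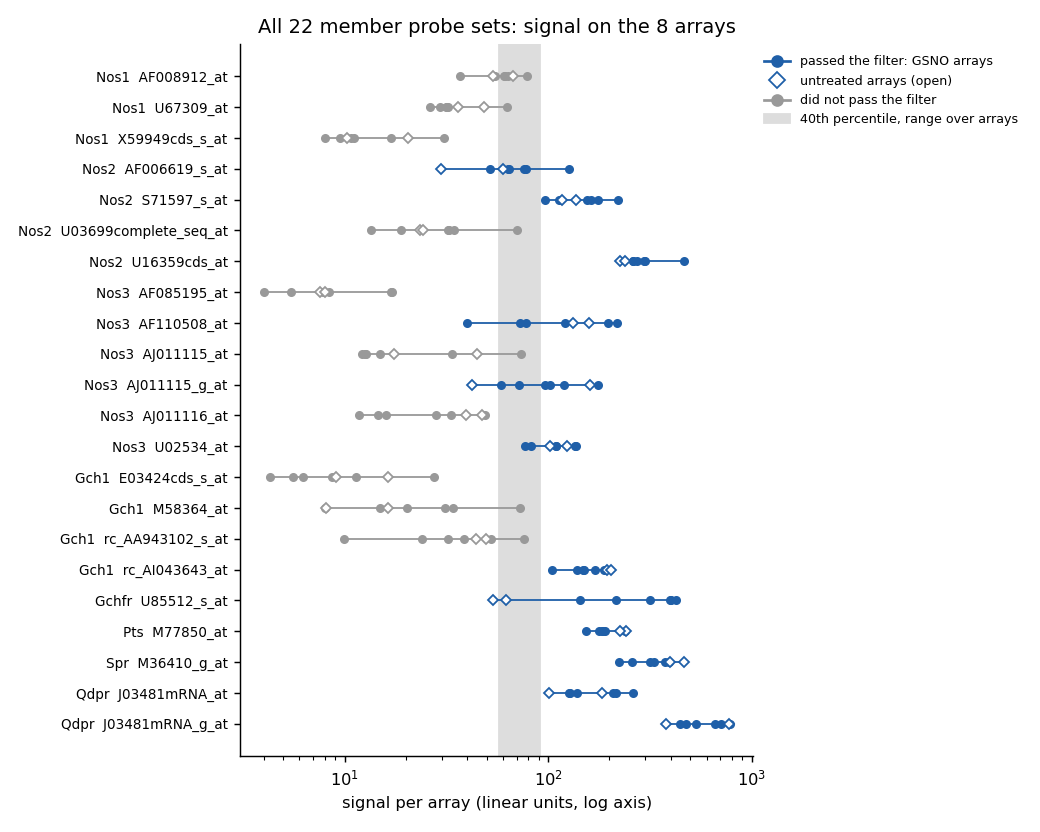
Signal on each of the 8 arrays (horizontal log axis, linear signal units) for all 22 member probe sets. Blue marks the 12 that passed the filter and grey the 10 that did not, filled circles are GSNO arrays and open diamonds untreated arrays, and the shaded band is the 40th percentile of signal, 57.2 to 91.0 over the arrays.

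Genes around the pathway were read from 6 lists. The list around induction of Nos2 and Gch1 held cytokines, transcription factors and their regulators, and 9 of its 13 genes had a tested probe set. Of these, 2 rose and 0 fell at 1 h, and 3 rose and 0 fell at both 2 h and 4 h (median log2 fold change 0.55, 0.79 and 1.00, against -0.05, -0.06 and -0.16 over all tested probe sets). Of all tested probe sets 0.527%, 0.97% and 1.53% were called at these times. A gene of a list counted as called when any of its probe sets passed, and the medians used its probe set with the highest mean. Counts of genes and shares of probe sets are therefore unlike measures. The genes that rose were Cebpb, a transcription factor of cytokine responses, Crem, a modulator of cAMP-responsive transcription, and, from 2 h, the cytokine Il6. Without the 1 h array numbered 1, the calls of Crem and Cebpb at 1 h were lost in all their called probe sets. That of Crem in U04835_at was also lost without the 1 h or the untreated array numbered 2. At 2 h, the call of Cebpb in X60769mRNA_at was lost without the untreated array numbered 1. The 2 h call of Il6 in M26745cds_s_at was lost without any 1 of the 2 h or untreated arrays. Between 4 h and 1 h, 1 gene, Il6, was called higher (log2 difference 2.71 in M26745cds_s_at, limma adjusted p = 0.0467), a call that was lost when any 1 of the 8 arrays was left out (adjusted p = 0.0654 to 0.272). In that comparison 0.476% of all tested probe sets were called. The log2 fold changes at 1, 2 and 4 h were 3.21, 4.13 and 4.30 for Crem (S66024_g_at), 2.48, 2.21 and 2.19 for Cebpb (X60769mRNA_at) and 2.07, 3.85 and 4.36 for Il6 (M26744_at). With the replicate block Nfkb1, a subunit of NF-kB, joined them at 2 h and 4 h (log2 fold change 1.25 and 1.19), a gene named after its values were seen, and Il6 passed at 1 h too. In untreated cells Il6 read 26.6 and 15.8 in M26744_at, which reached the filter level on the 6 GSNO arrays alone. M26745cds_s_at read 6.92 and 9.59 there and reached that level on 4 arrays, those of 2 h and 4 h. Il6 therefore entered the test through the groups in which it is high, and the size of its changes over the untreated level is uncertain. Neither Tnf, at 7.26 to 36.7, nor Ifng, at 7.12 to 66.3, passed the filter. Il1b passed it on 2 arrays and gave 0.32 at 2 h and -0.16 at 4 h. These lists were drawn up with earlier results on Crem, Cebpb and Il6 known. The counts and medians of this list are therefore no evidence that inducers rose as a set.

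The BH4 salvage list held Cbr1, a carbonyl reductase able to act on pterin intermediates, and Akr1b1, aldose reductase, as its 2 tested genes of 5, and 0 were called at 1, 2 or 4 h by limma. Over all tested probe sets, 0.527%, 0.97% and 1.53% were called. Cbr1 read 1105 and 1009 in untreated cells, 2258 and 1275 at 1 h, 4659 and 1854 at 2 h, and 7737 and 2413 at 4 h (D89070cds_s_at). All exposed arrays lay above both untreated arrays, and the arrays numbered 1 moved further. The log2 fold change at 4 h was 2.01 (limma adjusted p = 0.195; 0.00295 with the replicate block), and the other Cbr1 probe set gave 1.58 (0.288; 0.00845 with the block). Both probe sets carry suffixes of shared probes, so related reductases cannot be told apart. Akr1b1 gave -0.62 and -0.05 at 4 h in its 2 probe sets. Of the BH4-dependent hydroxylases Th was the 1 of 5 tested, with a change of -0.08 at 4 h.

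Of 14 proteins that bind nitric oxide synthases, 6 were tested and 0 were called by limma, where 0.527% to 1.53% of all tested probe sets were called at the 3 times, so that a count of 0 among so few genes is near the background. Hsp90ab1, a chaperone, gave at most 0.43 at 4 h. Cav3, a caveolin that restrains the synthases, gave -0.96, -0.93 and -0.64 at 4 h in its 3 probe sets, of which 2 passed with the replicate block (adjusted p = 0.0386 and 0.036). Of 9 genes of arginine supply and use 5 were tested and 0 were called, at the same background. The arginine transporter Slc7a1 read 277 and 179 in untreated cells, 272 and 159 at 1 h, 247 and 203 at 2 h, and 90.5 and 99.5 at 4 h (U70476_at). It gave -1.07 at 4 h (limma adjusted p = 0.251; 0.0549 with the replicate block), and -0.94 and -1.13 in its other probe sets. Ddah1, which breaks down the synthase inhibitor asymmetric dimethylarginine, gave -0.69 and -0.43 at 4 h, and 1 of these passed with the block (adjusted p = 0.0395).

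In the list of nitric oxide and S-nitrosothiol handling, 5 of 9 genes were tested and 1 fell: Gucy1b1, which encodes a subunit of soluble guanylyl cyclase, at 4 h (log2 fold change -3.17, limma adjusted p = 0.00229) and between 4 h and 1 h (-3.12, adjusted p = 0.012). Leaving out any 1 h or 4 h array ended the second of these calls (adjusted p = 0.0566 to 0.0841). It read 315 and 253 at 4 h, against 3249 and 2273 in untreated cells, while its change at 2 h was -0.62. Of all tested probe sets 1.53% were called at 4 h and 0.476% between 4 h and 1 h. Adh5, which reduces GSNO, gave 0.20 at 4 h (limma adjusted p = 0.836). With the replicate block Txnrd1, thioredoxin reductase, rose at 2 h and 4 h (log2 fold change 2.14 at 4 h in 1 probe set and 1.38 in the other, against limma adjusted p = 0.0609 and 0.0947 without the block) and Gucy1a1 fell at 4 h; both were named after their values were seen.

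**Figure D5:**
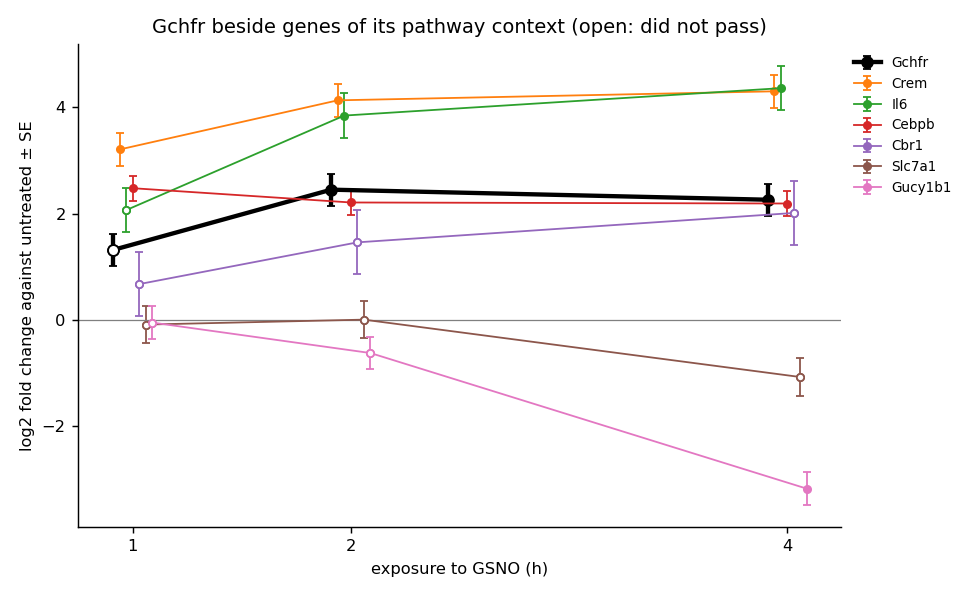
Log2 fold change against untreated cells ± SE (vertical axis) at 1, 2 and 4 h of GSNO for Gchfr and 1 probe set each of 6 context genes. Filled points passed at adjusted p under 0.05 and open points did not; Gchfr (black) stood at 1.32, 2.45 and 2.26, between Crem and Il6 above and Slc7a1 and Gucy1b1 below at 4 h.

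The tested probe sets whose log2 signals followed Gchfr most closely over the 8 arrays, among 4840 of other singly annotated genes, were those of Tmem120a (Pearson r = 0.981), Gclc (0.976), Cyp1b1 (0.972) and Crem (0.969 and 0.961 in 2 probe sets). Tmem120a read 356 and 522 at 4 h, against 129 and 159 in untreated cells. Spr, the member with the next lowest F test p (0.0805), was followed most closely by Lhb (0.951), Txnip (0.935), Ptov1 (0.934), Fzd2 (0.934) and Aopep (0.928). These correlations describe 8 points that share groups and runs.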

How the data were processed

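RNA of the 8 samples was hybridised to Affymetrix rat U34 arrays, set A. The deposited values are linear signal intensities, 1 per probe set, which the authors made with Affymetrix GeneChip 5.0 software, per the series design. Trimmed means of 500.7 to 501.0 on the 8 arrays show a common scaling, and the files carry no detection calls. No level was set between probe sets.

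After 59 control features were left out, 8740 probe sets remained. Of these 7006 had 1 gene symbol in the platform annotation, 308 several and 1426 none. The offset of 21.1 signal units added before log2 was the median over arrays of the 20th percentile, and it understates changes of weak probe sets. limma 3.58.1 in R 4.3.3 (lmFit, eBayes with trend) fitted 4 groups together, with 4 residual degrees of freedom, two-sided. The test was checked on simulated data.

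Named were all member probe sets, context genes that passed in a comparison, in a list with none passing the 2 genes with the largest change at 4 h, and the 5 probe sets closest to Gchfr and to Spr; Adh5, the cytokines, Edn1, Dcn and Cd14 were named after their values were seen. The members and lists were chosen with earlier results of these data known. Fitting the array number as a block was an alternative: over all 6 pairs of groups, same-numbered arrays deviated together (correlation 0.387 to 0.569), and in the array records same-numbered arrays share a scan day and fluidics protocol. The arrays numbered 2 belong to 1 recorded experiment, while those numbered 1 belong to 2, with 1 h and 4 h apart from 2 h and untreated cells. The arrays also come from 3 chip lots. The 1 h array numbered 1 is alone in its lot, the other arrays numbered 1 share a lot, and those numbered 2 share another. Offsets, filters, scalings, the variance trend, the groups fitted, the recorded experiment and leaving out each array were the other alternatives. Promoter windows came from RefSeq (GRCr8); no other coordinates were used, since the files name no build.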

Additional observations from a re-analysis of the deposited data

How the results depend on the processing

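Over 19 alternatives the log2 fold change of Gchfr was 2.18 to 2.62 at 2 h, called in 15, and 2.00 to 2.46 at 4 h, called in 16; the lost calls all came from leaving out 1 array. No member value reversed a call, but 44 of 908 member values, all uncalled, changed sign. With the recorded experiment as a block, the 4 h change of S71597_s_at of Nos2 went from -0.22 to 0.01. That of AF110508_at of Nos3 went from -0.46 to 0.11. With array number taken as the replicate block, the calls among all tested probe sets were 79, 186, 466 and 300 at 1 h, 2 h, 4 h and for 4 h against 1 h, against 31, 57, 90 and 28 without it, and the block changed no call of a member. With the recorded experiment as a block they were 152, 165 and 201 at 2 h, 4 h and for 4 h against 1 h. Without the variance trend 4 were called for 4 h against 1 h. With only the groups compared, 37 were called at 2 h, and limma called 0 for 4 h against 1 h (462 at an unadjusted p under 0.05). Scaling to a common median together with the replicate block, an alternative chosen after seeing the data, gave 73, 152, 414 and 279, and it called 1 member, Gchfr, at 1 h (adjusted p = 0.0459) and for 4 h against 1 h (adjusted p = 0.0431). Leaving out 1 array gave 5 to 27 calls at 1 h, 19 to 52 at 2 h, 32 to 87 at 4 h and 0 to 23 for 4 h against 1 h; the 0 came without the 1 h array numbered 2, where 377 had an unadjusted p under 0.05. Member calls were then 0 to 1 at 2 h and at 4 h. A common median turned 56 higher and 34 lower calls at 4 h into 83 and 21, and 12 and 16 for 4 h against 1 h into 18 and 6. The 2 arrays of each group limit the precision of every value.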
